A study of Mus musculus with 21 samples.

Results

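A set of 10 genes of mouse embryonic stem cell (ESC) identity that stand beside the usual naive marker panel was followed in wild-type and *Ddx6* KO cells: Tfcp2l1, Tbx3, Prdm14, Nr0b1, Nr5a2, Fgf4, Tdgf1, Dppa3, Dppa4 and Dppa5a. They were chosen by name for their known place in the ESC network, outside the marker panel of the study. Earlier results of these data were known at that point. Each symbol was matched to its Ensembl identifier in the count tables. All 10 were found among the 51467 genes of the table, and all 10 entered the fit of 14518 genes. Nascent RNA was labelled with 500 µM 4-thiouridine (4sU) for 30 min, pulled down and sequenced, and total RNA of the same culture was sequenced beside it, so each gene has a 4sU level, a total level and the ratio of total to 4sU. The ratio was used in the study as a relative measure of mRNA stability.

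Both genotypes were V6.5 mouse ESCs kept in Knockout DMEM with FBS, LIF and 2i, that is the MEK inhibitor PD0325901 and the GSK3 inhibitor CHIR99021. There were 3 wild-type cultures and 4 *Ddx6* KO cultures, the latter from 2 CRISPR-Cas9 clones with 2 cultures each. One clone carries a single-nucleotide insertion and the other a large deletion at the start of the seventh exon of Ddx6, and the labels do not say which clone number has which allele. The wild-type cultures are the parental line and not a clone taken through the same targeting, so the knockout and clonal selection cannot be told apart. Nothing in the labels says that the cultures of one clone were derived separately, and p values then measure the spread between cultures.

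DDX6 is a DEAD-box RNA helicase of P-bodies that links microRNA-bound and deadenylated mRNAs to translational repression and decapping. Naive ESCs resemble the preimplantation epiblast and are held in that state by LIF through STAT3, by MEK inhibition and by GSK3 inhibition. TFCP2L1 and TBX3 are transcription factors on the LIF and GSK3 side of this network. PRDM14, NR0B1 and NR5A2 are nuclear regulators of the OCT4 network, FGF4 and TDGF1 are secreted or membrane signalling proteins, and DPPA3, DPPA4 and DPPA5A are germ-line and preimplantation proteins.

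Levels are given as TMM-scaled CPM, the usual CPM unit with each library total first multiplied by its TMM factor, so that levels and fitted fold changes are on the same scale. Library totals ran from 2441639 to 3570192 counts in 4sU and from 5724179 to 7369651 in total RNA, and 3 counts amount on this scale to at most 1.32 CPM in a 4sU library and 0.556 CPM in a total RNA library, a floor for counting error only. Replicate libraries had Spearman correlations of 0.982 to 0.987 in 4sU and 0.994 to 0.995 in total RNA. Ddx6 itself in total RNA was 334, 384 and 392 CPM in the wild-type cultures, 57.3 and 67.8 CPM in clone 1 and 23.1 and 21.5 CPM in clone 2. The knockout cultures thus all lay below wild type, with a log2 fold change of -3.12 ± 0.32 (SE, edgeR adjusted p = 9.23e-06). Since these are bulk samples, fewer cells of a kind and less RNA per cell cannot be told apart.

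In wild-type ESCs the total level per kilobase of exon differed 155-fold between the highest and the lowest of the 10 genes. Dppa5a, a KH-domain protein gene, stood highest at 788 ± 42.6 CPM per kb (SD, n = 3), at percentile 99.8 of the tested genes. Tdgf1 followed at 252 ± 18.1 CPM per kb. Fgf4 at 145 ± 6.27 and Tfcp2l1 at 145 ± 4.32 CPM per kb overlapped between cultures and cannot be ordered. Below them came Tbx3 at 56.1 ± 5.39, Nr0b1 at 41.8 ± 1.85 and Dppa4 at 31.7 ± 0.339 CPM per kb. Nr5a2 at 22.7 ± 1.24 and Prdm14 at 20.96 ± 2.05 CPM per kb overlapped again. The length used was that over all annotated exons of a gene. For Nr5a2 it was 5573 bases, against 1859 bases in its principal transcript, so its place in both assays depends on that choice. Dppa3 was the lowest, at 5.08 ± 0.269 CPM per kb, below the median of 8.17 CPM per kb over the tested genes, which the other 9 exceeded.

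The order was different in nascent RNA. Dppa5a at 310 ± 24.5 and Fgf4 at 309 ± 21.6 CPM per kb in the 4sU libraries were the highest and overlapped. Tbx3 came next at 232 ± 7.26 CPM per kb, well above Tdgf1 at 101 ± 4.95 CPM per kb, although in total RNA Tdgf1 was above Tbx3. Nr0b1 at 74.9 ± 8.92 and Tfcp2l1 at 65.4 ± 3.65 CPM per kb overlapped. The remaining 4sU levels were 48.5 ± 2.37 CPM per kb for Nr5a2, 19.1 ± 2.10 for Dppa4, 13.98 ± 1.74 for Prdm14 and 2.93 ± 1.09 for Dppa3, each apart from its neighbours.

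**Figure D1:**
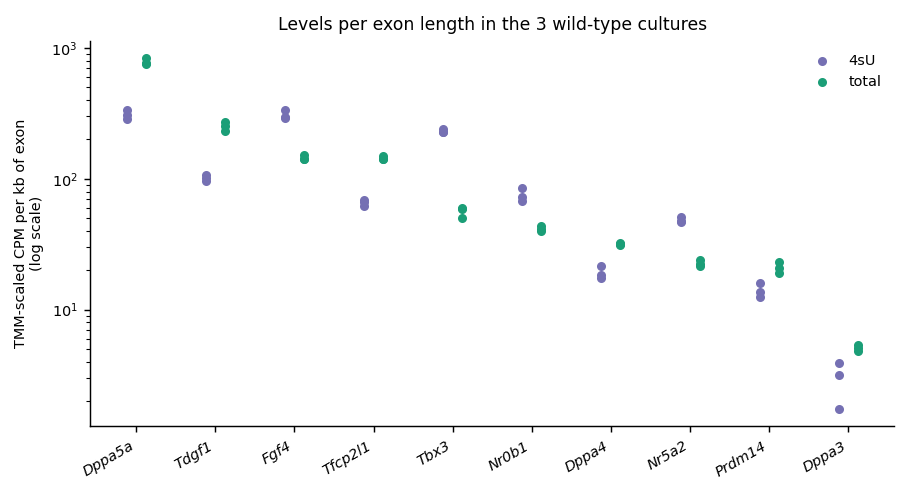
Wild-type levels of the 10 genes in 4sU and total RNA, in CPM per kilobase of exon on a log axis, with 1 point per culture. Dppa5a has the highest mean in both assays, 788 in total RNA and 310 in 4sU, and Dppa3 the lowest, and Tbx3 lies higher in 4sU than in total RNA.

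The ratio of total to 4sU placed the genes at both ends of the scale. On the log2 scale the wild-type median over the tested genes was 0.08. Dppa5a at 1.35 ± 0.04 (SD, n = 3), Tdgf1 at 1.31 ± 0.15 and Tfcp2l1 at 1.15 ± 0.06 lay at percentiles 87.2, 86.4 and 82.4, the range of relatively stable mRNAs. Tbx3 at -2.05 ± 0.13 lay at percentile 13.5. Nr5a2 at -1.09 ± 0.14, Fgf4 at -1.08 ± 0.13 and Nr0b1 at -0.83 ± 0.21 lay between percentiles 25.1 and 29.1. Dppa3, Dppa4 and Prdm14 fell between these, at percentiles 70.7, 70.4 and 65.8. The 4sU counts join a single-end and a paired-end run, whereas total RNA was single-end only. The places of the genes on this scale therefore depend in part on the read type.

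The design asks 3 things of these genes: whether the genes differ between *Ddx6* KO and wild type in nascent RNA, in total RNA and in the ratio. In nascent RNA 6 of 10 passed an edgeR adjusted p of 0.05, where 41.5% of all tested genes did. Prdm14 and Tdgf1 rose, among 20.5% of all genes that rose, and Nr5a2, Fgf4, Dppa3 and Dppa5a fell, among 21% that fell. The cultures of both genotypes did not overlap for 6 members, Tbx3, Prdm14, Dppa5a, Fgf4, Tdgf1 and Nr5a2, against 41.7% of all genes. The median log2 fold change of the 10 was -0.04, beside 0.00 over all genes.

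In total RNA 7 of 10 passed the threshold, beside 50.5% of all genes. Tbx3 and Prdm14 rose, where 19.5% of all genes rose, and Tfcp2l1, Nr5a2, Fgf4, Dppa3 and Dppa5a fell, where 31% fell. Cultures did not overlap for 7 members, Tfcp2l1, Tbx3, Nr0b1, Dppa3, Dppa5a, Fgf4 and Nr5a2, against 52.4% of all genes. The median over the 10 was -0.26 and over all genes -0.10.

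In the ratio 4 of 10 passed, beside 12.3% of all genes. Tbx3 rose, as 3.77% of all genes did, and Tfcp2l1, Tdgf1 and Nr0b1 fell, as 8.51% did. Cultures did not overlap for Tfcp2l1, Tbx3, Tdgf1 and Nr5a2, 4 members against 22.9% of all genes. The medians were -0.12 for the 10 and -0.09 for all genes. With 10 genes these counts are descriptions, and no test compared them with the shares over all genes.

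Most of the changes were small. With the study's further limit of an absolute log2 fold change above 1, Dppa3 alone passed in nascent RNA, where 10.9% of all genes did, and in total RNA, where 10.1% did. No member passed it in the ratio, where 1.08% of all genes did. Dppa3 reached 3 raw CPM in 5 of 14 libraries, 4 of them wild type, so it entered the fit mainly through the group where it was higher. Without it the counts were 5 of 9 in nascent RNA and 6 of 9 in total RNA.

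**Figure D2:**
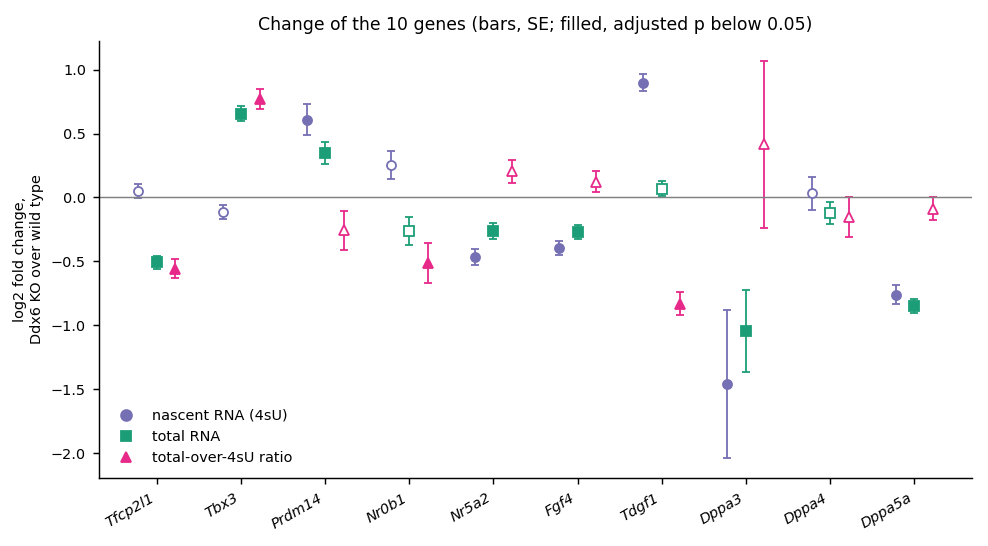
Log2 fold change of *Ddx6* KO over wild type for the 10 genes in nascent RNA, total RNA and the ratio of total to 4sU. Bars are 1 SE, derived from the edgeR F statistic, and points are filled where the adjusted p is below 0.05. Tdgf1 lies at 0.90 in nascent RNA and 0.07 in total RNA, Tbx3 at -0.12 and 0.65, and Dppa3 has by far the widest bars.

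**Figure D3:**
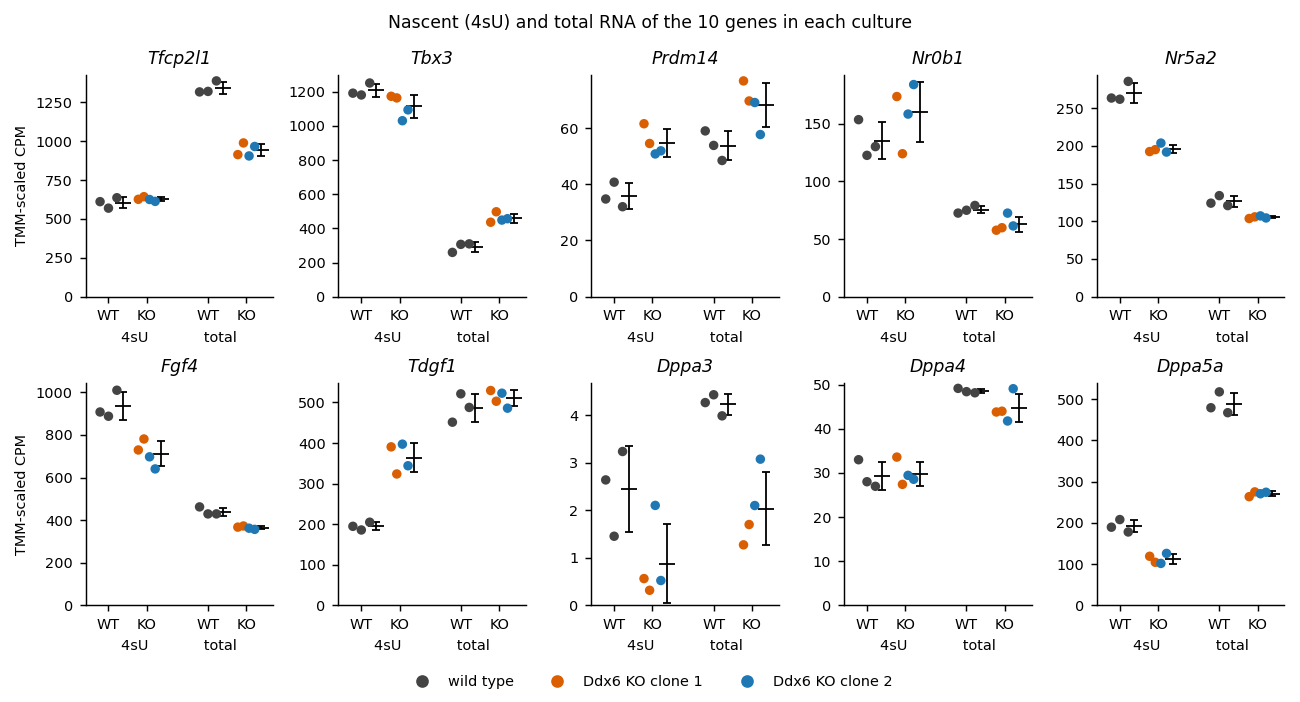
CPM of each of the 10 genes in every culture, in 4sU and total RNA, TMM-scaled, on linear axes from 0, with wild type and both *Ddx6* KO clones in separate colours and the mean and SD of each genotype beside the points. The knockout points of Dppa5a lie below wild type in both assays, and those of Tdgf1 lie above it in 4sU and overlap it in total RNA.

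Because DDX6 acts downstream of microRNAs, the 3′ UTRs of the 10 genes were searched for the seed of the miR-290 and miR-302 families. The study describes microRNAs with this seed as a large part of those in ESCs. Its naive reporter ESCs were positive for miR-290 and negative for miR-302. Mature sequences from RefSeq (GRCm38.p6) are shown for 3 of these microRNAs, with bases 2 to 8, the seed, in capitals, since they have the same seed although the rest of the strand differs.
miR-291a-3p: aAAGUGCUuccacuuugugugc
miR-294-3p: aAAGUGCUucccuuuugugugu
miR-302b-3p: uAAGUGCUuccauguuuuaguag
The first is encoded at chr7:3218968-3218989, the second at chr7:3220691-3220712 and the third at chr3:127545275-127545297, all on the plus strand. MicroRNA levels were not measured here.

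Sites were searched on the mRNA strand of the principal transcript in Gencode M21 (GRCm38). The letters were AGCACTTA for the longest site, AGCACTT and GCACTTA for the 7-base sites and GCACTT for the 6-base site, which lies within the others. The 3 genes with a match are shown here with the matched bases in capitals because in them the match and the ratio can be read side by side.
Tfcp2l1, 7-base site: gatggccgAGCACTTcccaactg
Tfcp2l1, 6-base site: catattttGCACTTgtaaatga
Fgf4, 7-base site: tcaggaggAGCACTTtctctcga
Tbx3, 6-base site: ctgccagtGCACTTtgttagat
They lie in the 3′ UTRs at chr1:118683197-118683219, chr1:118685084-118685105, chr7:144862985-144863007 and chr5:119683153-119683174, all on the plus strand. AGCACTT occurs in 16.5% of 11948 3′ UTRs and GCACTT in 31.6%, so 2 and 3 of 10 are numbers near those shares, and AGCACTTA, found in 3.39%, and GCACTTA, found in 7.72%, occurred in none of the 10. The 3′ UTR of Tfcp2l1 is 7734 bases long against a median of 1037 bases. In the ratio, Tfcp2l1 fell, Tbx3 rose and Fgf4 passed the threshold in neither direction. The study reported that targets of microRNAs with this seed changed little in stability in *Ddx6* KO cells. It reported higher translation of these targets, which the libraries used here do not measure. The study took its targets from conserved TargetScan predictions. The matches shown here are letter matches only, and whether the 3 genes belong to the study's targets was not checked. Whether the matches have a part in the changes of these genes was not tested.

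Tfcp2l1 (ENSMUSG00000026380.10, chr1:118627946-118685168, plus strand) encodes a CP2-family transcription factor and STAT3 target that sustains self-renewal. Its 4sU level was 612, 570 and 637 CPM in wild type, 627 and 644 CPM in clone 1 and 625 and 613 CPM in clone 2. The genotypes overlapped, with a log2 fold change of 0.05 ± 0.05 (SE, edgeR adjusted p = 0.487). In total RNA the levels were 1318, 1321 and 1388 CPM in wild type against 914, 989, 906 and 967 CPM in *Ddx6* KO. Every knockout culture lay below every wild-type culture, and total Tfcp2l1 fell by 0.51 ± 0.05 on the log2 scale (adjusted p = 5.73e-13, edgeR). The log2 ratio was 1.11, 1.21 and 1.12 in wild type and 0.54, 0.62, 0.53 and 0.66 in *Ddx6* KO. It fell by 0.56 ± 0.07 (adjusted p = 1.47e-07, edgeR), and its place among the tested genes went from percentile 82.4 to 70.0. Scaled by library size only, the fold change in nascent RNA was 0.25 (adjusted p = 7.73e-05, edgeR), on a scale where the median of all genes lay at 0.21.

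Tbx3 (ENSMUSG00000018604.18, chr5:119670669-119684724, plus strand) encodes a T-box factor whose expression in ESCs is fed by the PI3K and GSK3 side of LIF signalling. Nascent Tbx3 was 1192, 1182 and 1252 CPM in wild type, 1174 and 1164 CPM in clone 1 and 1031 and 1094 CPM in clone 2. All knockout cultures were lower by a little, and the log2 fold change of -0.12 ± 0.06 did not pass the threshold (edgeR adjusted p = 0.0976), although it did with DESeq2 (-0.15, adjusted p = 0.0481) and for clone 2 alone (-0.18, edgeR adjusted p = 0.0355), and with library size only the value was 0.09. In total RNA the order was the opposite. Wild-type cultures had 259, 307 and 309 CPM, and *Ddx6* KO cultures had 436, 497, 449 and 457 CPM. Total Tbx3 thus rose by 0.65 ± 0.06 on the log2 scale (adjusted p = 2.83e-14, edgeR), at percentile 89.5 of all changes. The log2 ratio went from -2.20, -1.95 and -2.01 to -1.43, -1.23, -1.20 and -1.26. Every knockout ratio was above every wild-type ratio, and the rise of 0.77 ± 0.08 (adjusted p = 4.08e-10, edgeR) lay at percentile 95.3. Tbx3 still had a low ratio in *Ddx6* KO cells, at percentile 21.3. Of its 50-base windows 1.36% are shared with the antisense gene Tbx3os1, and the authors' counting was stranded.

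Tfcp2l1 and Tbx3 therefore moved in opposite directions in total RNA and in the ratio, while neither passed the threshold in nascent RNA.

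Prdm14 (ENSMUSG00000042414.7, chr1:13113457-13127163, minus strand) encodes a PR-domain protein that represses FGF signalling and DNA methyltransferase genes. Nascent Prdm14 was 34.8, 40.7 and 32.0 CPM in wild type, 61.5 and 54.5 CPM in clone 1 and 50.8 and 51.9 CPM in clone 2. The groups were apart, and it rose by 0.61 ± 0.12 on the log2 scale (adjusted p = 3.37e-05, edgeR). Total Prdm14 was 59.0, 53.8 and 48.5 CPM in wild type and 76.8, 69.6, 69.1 and 57.7 CPM in *Ddx6* KO. The lowest knockout culture lay within the wild-type range, and the rise was 0.35 ± 0.09 (adjusted p = 0.000622, edgeR). The log2 ratio had a mean of 0.58 ± 0.18 (SD, n = 3) in wild type and 0.31 ± 0.12 (n = 4) in *Ddx6* KO, a difference of -0.26 ± 0.15 (SE) that did not pass the threshold (edgeR adjusted p = 0.285).

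Nr0b1 (ENSMUSG00000025056.4, chrX:86191764-86195947, plus strand) encodes DAX1, an orphan nuclear receptor that binds OCT4 and NR5A2. In nascent RNA it was 154, 123 and 130 CPM in wild type and 174, 124, 158 and 184 CPM in *Ddx6* KO. In total RNA it was 72.5, 74.99 and 79.1 CPM in wild type against 57.7 and 59.8 CPM in clone 1 and 72.5 and 61.4 CPM in clone 2. The first pair of groups overlapped, and the second came within rounding of each other. Neither passed the threshold, with log2 fold changes of 0.25 ± 0.11 in nascent RNA (edgeR adjusted p = 0.0766) and -0.26 ± 0.11 in total RNA (edgeR adjusted p = 0.0505). With library size only they were 0.46 (edgeR adjusted p = 0.00197) and -0.11 (edgeR adjusted p = 0.448). In total RNA TMM within each assay gave -0.17 (edgeR adjusted p = 0.196) and a filter of only 1 count in total -0.16 (edgeR adjusted p = 0.121). Both contrasts passed with limma-voom (0.25 and -0.27) and with the single-end run only (0.30 and -0.25). Clone 1 alone gave 0.16 and a called -0.35 in these contrasts, and clone 2 alone a called 0.36 and -0.16. Each contrast also passed without wild-type culture 1 (0.34 and -0.29), without the second clone 1 culture (0.36 and -0.23) and without the first clone 2 culture (0.27 and -0.33). The log2 ratio was -1.08, -0.71 and -0.72 in wild type and -1.58, -1.05, -1.12 and -1.58 in *Ddx6* KO. These groups overlapped in 1 culture each, and the fall of 0.52 ± 0.16 had an edgeR adjusted p of 0.0341. This call was lost in 6 of 21 alternatives, among them DESeq2 (-0.46, adjusted p = 0.0513) and the fits without wild-type culture 2 (-0.45, edgeR adjusted p = 0.159), without wild-type culture 3 (-0.45, edgeR adjusted p = 0.215), without the first clone 1 culture (-0.43, edgeR adjusted p = 0.0954) and without the second clone 2 culture (-0.42, edgeR adjusted p = 0.0657).

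Nr5a2 (ENSMUSG00000026398.14, chr1:136842571-136960448, minus strand) encodes LRH1, a nuclear receptor that activates Pou5f1 and Nanog. Nascent Nr5a2 was 264, 262 and 286 CPM in wild type, 193 and 195 CPM in clone 1 and 204 and 192 CPM in clone 2. The 4 knockout cultures were close together and all below wild type, with a fall of 0.47 ± 0.06 on the log2 scale (adjusted p = 8.73e-09, edgeR). Total Nr5a2 was 124, 134 and 121 CPM in wild type and 104, 106, 107 and 104 CPM in *Ddx6* KO. Here too the groups were apart, with a fall of 0.26 ± 0.06 (adjusted p = 0.000305, edgeR). This call was lost when libraries were scaled by size only (-0.11, edgeR adjusted p = 0.157). It was also lost when the filter asked for only 1 count in total (-0.16, edgeR adjusted p = 0.0715). The ratio of total to 4sU was higher in every knockout culture, between -0.92 and -0.87 on the log2 scale against -1.24 to -0.96 in wild type. Its difference of 0.20 ± 0.09 did not pass the threshold (edgeR adjusted p = 0.124), and did so with DESeq2 (0.26, adjusted p = 0.0237) and with TMM within each assay (0.29, edgeR adjusted p = 0.0222).

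Fgf4 (ENSMUSG00000050917.5, chr7:144861386-144865243, plus strand) encodes the growth factor by which ESCs drive their own ERK signalling towards differentiation. Nascent Fgf4 was 908, 888 and 1010 CPM in wild type, 729 and 781 CPM in clone 1 and 697 and 641 CPM in clone 2. No knockout culture reached the wild-type range, and the fall was 0.39 ± 0.06 on the log2 scale (adjusted p = 4.70e-08, edgeR). Total Fgf4 was 462, 429 and 429 CPM in wild type against 367, 373, 362 and 357 CPM in *Ddx6* KO. The groups were again apart, with a fall of 0.27 ± 0.06 (adjusted p = 5.13e-05, edgeR), a call that was lost with library size only (-0.11, edgeR adjusted p = 0.0875). The log2 ratio of -1.08 ± 0.13 (SD, n = 3) in wild type and -0.96 ± 0.09 (n = 4) in *Ddx6* KO overlapped between groups (0.12 ± 0.08 SE, edgeR adjusted p = 0.357).

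Tdgf1 (ENSMUSG00000032494.12, chr9:110939603-110946158, minus strand) encodes CRIPTO, the membrane-bound coreceptor of NODAL. It had the largest rise in nascent RNA among the 10. Its 4sU level was 195, 186 and 205 CPM in wild type, 391 and 324 CPM in clone 1 and 397 and 344 CPM in clone 2. Every knockout culture was well above wild type, and the level rose 1.86-fold (log2 0.90 ± 0.07, adjusted p = 9.45e-17, edgeR), at percentile 93.2 of all genes. The total level did not follow. It was 451, 521 and 488 CPM in wild type and 529, 503, 523 and 486 CPM in *Ddx6* KO. The groups overlapped, and the log2 fold change of 0.07 ± 0.06 did not pass the threshold (edgeR adjusted p = 0.346). With TMM within each assay this value was 0.16 (edgeR adjusted p = 0.0175) and with library size only 0.22 (edgeR adjusted p = 0.000933). With a filter of only 1 count in total it was 0.17 (edgeR adjusted p = 0.0157), so whether total Tdgf1 rose depended on the setting.

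The log2 ratio of Tdgf1 was 1.21, 1.49 and 1.25 in wild type and 0.44, 0.63, 0.40 and 0.50 in *Ddx6* KO. The groups were far apart, and the ratio fell to 0.562 of wild type (log2 -0.83 ± 0.09, adjusted p = 6.89e-10, edgeR). Its place among all genes went from percentile 86.4 to 66.4, and its change lay at percentile 3.85. Tdgf1 was the one member with a rise in nascent RNA and a fall in the ratio both past the threshold, a combination held by 4.17% of all tested genes. Both contrasts use the same 4sU libraries, so a higher 4sU level lowers the ratio unless total RNA follows. Of its 50-base windows 12.5% are shared with the pseudogene Tdgf1-ps1, which had 5.24% as many counts as Tdgf1 and rose in 4sU from 7.03 ± 1.53 to 13.3 ± 1.62 CPM. With the counts of both added, an alternative chosen after the data were seen, the log2 changes were 0.90 in nascent RNA, 0.07 in total RNA and -0.83 in the ratio.

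**Figure D4:**
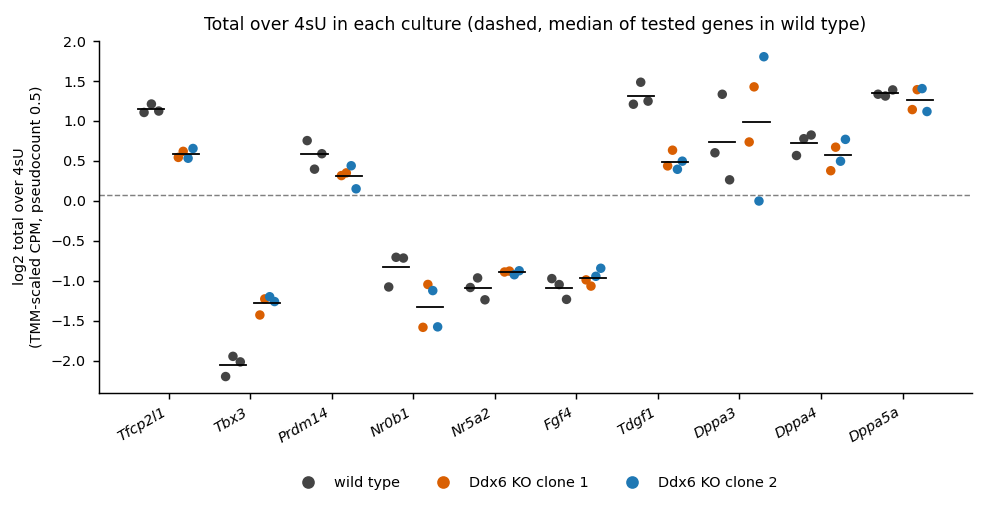
Log2 ratio of total to 4sU of the 10 genes in every culture, with a pseudocount of 0.5 CPM, the group mean as a line and the wild-type median of the tested genes dashed. Tfcp2l1 and Tdgf1 are lower and Tbx3 is higher in all 4 *Ddx6* KO cultures than in the 3 wild-type cultures, and Nr5a2 is higher by a smaller margin.

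The DPPA genes differed among themselves in both level and change. Dppa5a (ENSMUSG00000060461.5, chr9:78367052-78368177, minus strand) encodes an RNA-binding KH-domain protein of the preimplantation embryo. Its 4sU level was 190, 208 and 178 CPM in wild type, 119 and 105 CPM in clone 1 and 102 and 126 CPM in clone 2. All knockout cultures were lower, at 0.590 of wild type (log2 -0.76 ± 0.07, adjusted p = 2.74e-13, edgeR). In total RNA it was 479, 518 and 467 CPM in wild type and 264, 275, 271 and 274 CPM in *Ddx6* KO. The 4 knockout cultures were close to each other, at 0.555 of wild type (log2 -0.85 ± 0.06, adjusted p = 5.25e-19, edgeR), at percentile 8.60 of all genes. The log2 ratio was 1.33, 1.31 and 1.39 in wild type, and the 4 *Ddx6* KO cultures ranged from 1.12 to 1.41. The groups overlapped, and the difference of -0.09 ± 0.09 did not pass the threshold (edgeR adjusted p = 0.626). Of the 50-base windows of Dppa5a 38.6% occur in other genes, Dppa5b, Dppa5c, several pseudogenes and Pigp. Single-end reads from them could not be placed uniquely. These genes had at most 2.88% as many counts as Dppa5a. The 4sU re-sequencing run was paired-end. Wild-type Dppa5a in 4sU was 134, 139 and 108 raw CPM in the single-end run and 227, 271 and 244 raw CPM in the re-sequencing run. Total RNA was single-end only, so the level of the ratio joins unlike read types, for Dppa5a and for the other members. Wild-type Tbx3 in 4sU differed the other way. It was 1260, 1227 and 1275 raw CPM in the single-end run and 932, 895 and 1012 raw CPM in the re-sequencing run.

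Dppa4 (ENSMUSG00000058550.14, chr16:48283735-48294292, plus strand) encodes a SAP-domain chromatin protein. Its 4sU level was 33.0, 28.0 and 27.0 CPM in wild type and 33.6, 27.4, 29.5 and 28.6 CPM in *Ddx6* KO. Its total level was 49.1, 48.4 and 48.1 CPM in wild type and 43.8, 44.0, 41.8 and 49.1 CPM in *Ddx6* KO. The groups overlapped in both assays. Dppa4 was the one member that passed the threshold in none of the 3 contrasts, with log2 fold changes of 0.03 ± 0.13 (edgeR adjusted p = 0.869), -0.12 ± 0.09 (adjusted p = 0.247) and -0.15 ± 0.16 (adjusted p = 0.598) in nascent RNA, total RNA and the ratio. Other genes hold 35.9% of its 50-base windows, of which Gm14058 had 3.48% as many counts.

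Dppa3 (ENSMUSG00000046323.8, chr6:122626410-122630272, plus strand) encodes STELLA, which protects DNA methylation of the maternal genome and is expressed in a fraction of ESCs. It rested on very few counts. In 4sU there were 6, 4 and 9 counts in wild type, 2 and 1 in clone 1 and 7 and 2 in clone 2, or 2.64, 1.46 and 3.24 CPM against 0.565, 0.319, 2.10 and 0.524 CPM. The first clone 2 culture lay within the wild-type range and the other 3 knockout cultures below it. Summed over cultures, 19 counts in wild type and 12 in *Ddx6* KO gave a ratio of levels of 0.356, with an exact 95% interval of 0.158 to 0.773 that covers counting error only. The fitted log2 fold change of -1.46 ± 0.58 (edgeR adjusted p = 0.0378) lost its call in 10 of 19 alternatives, with adjusted p from 0.00614 to 0.407 over all of them. The call was lost without wild-type culture 1 (-1.41) or 3 (-1.18), without either clone 1 culture (-1.30 and -1.21) and without the second clone 2 culture (-1.25). Without the first clone 2 culture it was -2.28 (edgeR adjusted p = 0.00614). With clone 1 alone against wild type it was -2.37 (edgeR adjusted p = 0.0138), and with clone 2 alone -0.92 (edgeR adjusted p = 0.258).

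In total RNA Dppa3 was 4.27, 4.43 and 3.99 CPM in wild type and 1.27, 1.70, 2.10 and 3.08 CPM in *Ddx6* KO, from 76 and 57 counts in all. All 4 knockout cultures were lower, at 0.482 of wild type (exact 95% counting interval 0.336 to 0.688). The log2 fold change was -1.04 ± 0.32 (edgeR adjusted p = 0.00558), and with clone 2 alone against wild type it was -0.70 (edgeR adjusted p = 0.109). The log2 ratio spread from 0.26 to 1.33 in wild type and from 0.00 to 1.80 in *Ddx6* KO, and a difference was not detectable at this depth (0.42 ± 0.65, edgeR adjusted p = 0.761). Dppa3 lies on chromosome 6, where 735 tested genes had median log2 fold changes of 0.53 in nascent RNA and 0.43 in total RNA, opposite in sign to those of Dppa3. The part that this chromosome-wide shift has in its values, or in those of list genes on the same chromosome, was not tested. After each assay's mean was taken off, the tested genes most like Dppa3 over the 14 libraries were Zmat4 (Pearson r = 0.915), Pdhb (0.910) and Hey1 (0.910), a description over libraries that share the same genotype split.

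Between the clones no member passed an edgeR adjusted p of 0.05 in nascent RNA, total RNA or the ratio, where 0.165%, 0.296% and 0.00689% of all tested genes did. At an unadjusted p of 0.05 edgeR called 1, 0 and 0 members, beside 6.52%, 6.61% and 4.03% of all genes. DESeq2 called 1, 0 and 0 at that level, beside 4.4%, 3.91% and 2.3%, and limma-voom 2, 1 and 0, beside 6.19%, 7.33% and 4.02%, and at an adjusted p of 0.05 neither called any member. Fgf4 in nascent RNA was the member called by edgeR, lower in clone 2 by 0.18 on the log2 scale (log2 -0.18, edgeR adjusted p = 0.614). Apart from Dppa3, the differences between clones were at most 0.20, 0.20 and 0.13 in size, whereas Ddx6 itself differed by -1.49 in total RNA (edgeR adjusted p = 9.73e-16), being lower in clone 2. Dppa3 was higher in clone 2 by 1.44 ± 0.95 in nascent RNA and 0.76 ± 0.46 in total RNA (SE), neither past the threshold. With 2 cultures a clone, small differences between them would not have been detected.

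The other genes of the same network were counted from lists, to be read against the shares of all tested genes past the threshold: 20.5% rose and 21% fell in nascent RNA, 19.5% and 31% in total RNA, and 3.77% and 8.51% in the ratio. Among 26 further naive and core pluripotency factors, all tested, 12 rose and 9 fell in nascent RNA, 13 rose and 6 fell in total RNA, and 5 rose and 3 fell in the ratio, with median log2 fold changes of 0.07, 0.13 and -0.02, and none was at 0 in any group. Their summed total level was 7270 to 7514 CPM in wild type and 7943 to 8248 CPM in *Ddx6* KO, whereas that of the 10 genes described here was 3279 to 3411 CPM and 2794 to 2919 CPM. In total RNA the largest changes past the threshold were those of Tcl1, a cofactor of AKT, at -1.61 ± 0.08 (edgeR adjusted p = 3.35e-24), Mybl2, a cell-cycle transcription factor, at -0.99 ± 0.14 (adjusted p = 0.000110), and Tet2, a 5-methylcytosine dioxygenase, at 0.91 ± 0.05 (adjusted p = 2.73e-21).

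Of 9 genes of LIF and STAT3 signalling, which lies upstream of Tfcp2l1, 5 rose and 3 fell in nascent RNA, 4 rose and 1 fell in total RNA, and 1 rose and 2 fell in the ratio, that is 8, 5 and 3 of 9 beside 41.5%, 50.5% and 12.3% of all genes. The medians were 0.31, 0.15 and -0.13. Socs3, the feedback inhibitor, rose by 0.75 ± 0.07 in total RNA (adjusted p = 8.91e-14, edgeR) and by 0.44 in the ratio (adjusted p = 0.001, edgeR). Stat3 rose by 0.59 ± 0.07 in total RNA (adjusted p = 3.87e-11, edgeR), and Il6st, which encodes the shared receptor chain GP130, fell by 0.36 ± 0.07 (adjusted p = 9.38e-06, edgeR).

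Of 15 genes of the pathway that FGF4 activates, 13 were tested. In nascent RNA 4 rose and 4 fell, in total RNA 3 rose and 6 fell, and in the ratio none rose and 1 fell, that is 8, 9 and 1 of 13 beside 41.5%, 50.5% and 12.3%, with medians of -0.01, -0.06 and -0.18. The 3 that rose in total RNA were ERK response genes, Spry4 by 4.99 ± 0.35 (adjusted p = 1.75e-07, edgeR), Dusp6 by 1.48 ± 0.21 (adjusted p = 2.50e-06, edgeR) and Etv4 by 1.23 ± 0.08 (adjusted p = 6.61e-19, edgeR), while Fgf4 itself fell. Spry4 was at 1.63 CPM in wild-type and 53.6 CPM in *Ddx6* KO total RNA. Other genes of the same families on this list were lower in total RNA. Their log2 fold changes were -0.62 for Spry1, -0.58 for Spry2 and -0.74 for Etv5.

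Of 14 genes around NODAL and its coreceptor Tdgf1, 11 were tested, of which 2 rose and 4 fell in nascent RNA, 3 rose and 3 fell in total RNA, and 2 rose and 2 fell in the ratio. These are 6, 6 and 4 of 11 beside 41.5%, 50.5% and 12.3%, and the medians were -0.16, 0.06 and -0.14. Lefty2 and Lefty1, which encode NODAL antagonists, fell by 1.89 ± 0.09 (adjusted p = 3.94e-25, edgeR) and by 0.87 ± 0.17 (adjusted p = 1.25e-05, edgeR) in total RNA, and the receptor gene Acvr2b fell by 0.54 ± 0.10 (adjusted p = 1.77e-05, edgeR). The ratio of Lefty2 also fell, by 0.76 (adjusted p = 0.00323, edgeR). In total RNA Nodal itself was higher by 0.41 on the log2 scale, Gdf3 by 0.30 and Acvr2a by 0.31. Fold changes of list genes were not adjusted for the chromosome 6 shift given above.

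Among 10 partners and targets of PRDM14 and DPPA3, 9 were tested, of which 5 rose and 2 fell in nascent RNA, 5 rose and 4 fell in total RNA, and none rose and 3 fell in the ratio. These are 7, 9 and 3 of 9 beside 41.5%, 50.5% and 12.3%, with medians of 0.48, 0.26 and -0.22. The DNA methyltransferase gene Dnmt3a rose by 0.91 ± 0.08 in total RNA (adjusted p = 5.02e-14, edgeR) and Dnmt3b fell by 0.72 ± 0.07 (adjusted p = 1.19e-12, edgeR). The other genes of the list that fell in total RNA were Dnmt3l (-0.43), Uhrf1 (-0.40) and Dnmt1 (-0.28). Whether the rise of Prdm14 has a part in these changes was not tested. Tet2 belongs to this list too.

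Of 11 primed and formative markers 7 were tested, of which 2 rose and 4 fell in nascent RNA and 2 rose and 3 fell in total RNA (medians -0.48 and 0.12), and in the ratio 1 rose and none fell (median 0.28), that is 6, 5 and 1 of 7 beside 41.5%, 50.5% and 12.3%. Otx2, the formative transcription factor gene, fell by 2.53 ± 0.22 in total RNA (adjusted p = 7.85e-15, edgeR). The other tested markers went both ways in total RNA. Dnmt3b (-0.72) and Pou3f1 (-0.62) were lower, and Dnmt3a (0.91), Zic2 (0.58), Foxd3 (0.19) and Zic5 (0.12) were higher. Dnmt3a and Dnmt3b are also on the PRDM14 and DPPA3 list. Of 7 primitive endoderm, 6 trophoblast, 6 fibroblast feeder and 6 neural and mesoderm markers, 3, 3, 2 and 3 were tested. In nascent RNA 1 endoderm marker rose, 2 trophoblast markers fell and no other passed, and in the ratio Krt7 alone passed, with a rise. In total RNA 2 endoderm markers rose, Dab2 by 0.74 ± 0.27 (adjusted p = 0.0193, edgeR) and Gata4 by 0.65 ± 0.26 (adjusted p = 0.0284, edgeR). Of the trophoblast markers Krt7 rose by 1.09 ± 0.33 (adjusted p = 0.00497, edgeR), and Tfap2a fell by 0.98 ± 0.31 (adjusted p = 0.00648, edgeR) and Eomes by 0.37 ± 0.15 (adjusted p = 0.0306, edgeR). The feeder markers Thy1 and Col1a1 rose by 1.47 ± 0.25 (adjusted p = 2.02e-06, edgeR) and 0.97 ± 0.30 (adjusted p = 0.00487, edgeR), and Neurod1 of the neural list by 1.15 ± 0.39 (adjusted p = 0.0117, edgeR). Several of these reached the 3 raw CPM of the filter mainly in *Ddx6* KO: Col1a1 in 8 *Ddx6* KO and 0 wild-type libraries, Thy1 in 8 and 1, Krt7 in 3 and 0 and the endoderm marker Pdgfra in 5 and 0. For such genes a higher *Ddx6* KO level is partly set by the filter, and nothing is drawn from the counts of these short lists.

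In total RNA the summed level of the feeder list went from 3.34 to 5.74 CPM in wild type to 10.7 to 12.6 CPM in *Ddx6* KO, with Postn and Dcn at 0 in both. The primitive endoderm list had 8.70 to 14.5 CPM in wild type and 12.3 to 18.3 CPM in *Ddx6* KO, the trophoblast list 17.2 to 23.6 and 15.4 to 21.7 CPM, and the neural and mesoderm list 20.7 to 22.7 and 17.9 to 21.2 CPM. The part of such cells in the changes of the 10 genes was not tested.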

How the data were processed

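The deposited tables hold raw counts that the authors made per gene, on the sense strand, with featureCounts 1.5.3 and Gencode M14 basic minus rRNA genes. Reads had been trimmed (cutadapt 1.14) and mapped to mm10 (STAR 2.5.3a), and only unique mappers were kept, which lowers the counts of genes with near-identical copies. For 4sU, the single-end run and the paired-end re-sequencing run were added up, and total RNA had single-end reads only. Of 51559 rows, 92 spike-in rows, all at 0, were left out.

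Genes reaching 3 CPM in 3 or more libraries were kept, scaled by TMM over 14 libraries (factors 0.925 to 0.942 in wild type, 1.03 to 1.07 in *Ddx6* KO) and fitted with genotype, assay and their interaction in edgeR 4.0.16 (R 4.3.3, robust quasi-likelihood test), with Benjamini-Hochberg adjustment over all tested genes. The SE of a fold change was derived from this test, as the absolute log2 fold change divided by the square root of the F statistic. Per-culture ratios had 0.5 CPM added. The code was tested on simulated data. Alternatives were DESeq2 1.42.0, limma-voom (limma 3.58.1), other scalings, filters and runs, replicate blocks, each clone alone and each culture left out. Counting intervals are exact (scipy 1.17.1). Both libraries of a culture come from 1 extraction and are paired, with deviations from group means correlated at 0.0038 to 0.075 over 10244 genes.

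The members and lists were chosen with earlier results of these data known. Named beside the members were Ddx6, per list at most 3 called genes with the largest change in total RNA, and the 3 genes most correlated with a member past a log2 fold change of 1. Gene positions, 3′ UTRs and symbols are from Gencode M21.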

Additional observations from a re-analysis of the deposited data

Results flagged for a closer look

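One of 30 groups of 4 *Ddx6* KO values stood past the 95% limit of Dixon's test for 1 distant sample, where 1.5 were expected by chance. In the 4sU libraries Dppa3 was at 2.10 CPM, from 7 counts, in the first culture of clone 2, and between 0.319 and 0.565 CPM in the other 3 *Ddx6* KO cultures. The gap took a share of 0.862 of the group's range, above that limit.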

How the results depend on the processing

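Over all members, contrasts and alternatives, 554 of 607 values kept their direction and their side of the threshold, 23 gained a call and 20 lost one. Another 10 values, with no call in either fit, changed sign: nascent Tbx3 (0.09) and total Dppa4 (0.03) with library size only, nascent Dppa4 under 5 alternatives (-0.03 to 0.00), the ratio of Dppa3 with the re-sequencing run only (-0.07) and without the second clone 2 culture (-0.02), and the ratio of Dppa5a with TMM within each assay (0.00). No called value changed sign. With the further limit on fold change, 1 member remained in nascent RNA, 1 in total RNA and 0 in the ratio. With each culture left out in turn, 5 to 7 members were called in nascent RNA, 7 to 8 in total RNA and 3 to 4 in the ratio. With the culture number as a replicate block the counts were 5, 7 and 4, beside 39.6%, 47.7% and 12.8% of all genes, and with the culture as a replicate block 4 in the ratio. The culture numbers do not pair samples of different groups (correlations -0.096 to 0.146), and of the calls only that of nascent Dppa3 was lost under the block (-1.42, edgeR adjusted p = 0.0590). Scaling by library size moved the median of all genes to 0.21 in nascent RNA, 0.06 in total RNA and -0.14 in the ratio, and gave 7 (4 higher, 3 lower), 6 (3 and 3) and 4 (1 and 3) members, beside 49%, 48.8% and 15.7% of all genes. With TMM within each assay the counts were 6 (2 and 4), 8 (3 and 5) and 4 (2 and 2), beside 41.6%, 48.9% and 9.03%. Over the same alternatives, the nascent rise of Tdgf1 (0.86 to 1.10), its fall in the ratio (-0.88 to -0.74), the rise of total Tbx3 (0.58 to 0.81) and of its ratio (0.71 to 0.86), the fall of total Tfcp2l1 (-0.52 to -0.35) and of its ratio (-0.61 to -0.47), the rises of Prdm14 (0.52 to 0.81 nascent, 0.26 to 0.51 total) and the falls of Dppa5a (-0.82 to -0.56 nascent, -0.89 to -0.69 total) kept their calls. Depth limits Dppa3, and for the ratio of low genes in general the smaller 4sU libraries.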
